A study of Homo sapiens with 9 samples.

Results

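Neuropeptide transcripts were followed in SH-SY5Y, a human neuroblastoma cell line that resembles young sympathetic neurons and is a cloned subline of SK-N-SH, after exposure to citrinin, a mycotoxin of Penicillium, Aspergillus and Monascus moulds. The genes are 9: the peptide precursors NPY, CALCA, CALCB, GAL, VIP, ADCYAP1 and PENK, and the granin-type secretory proteins VGF and SCG2. They were chosen by symbol, with earlier results of these same libraries known, including their read counts across doses and replicate numbers. Their fold changes and adjusted p-values are therefore a description and not independent support. All 9 symbols matched 1 gene each among the 61487 identifiers of the count tables. Of these, 8 had a read in any library, and 6 (NPY, CALCB, GAL, VIP, VGF and SCG2) passed the filter on low counts, as did 17806 genes of the whole table.

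The 9 libraries of total RNA form 3 groups of 3. The cells received vehicle (0 µM), 10 µM or 20 µM citrinin (abbreviated CTN in the sample names), in every case for 72 h in MEM/F12 medium with fetal bovine serum, and all groups share the line and the medium. Replicate numbers 1, 2 and 3 occur once at each dose. The labels do not say what a number stands for or whether the libraries came from separate cultures, so p-values measure the spread between these samples, which may be technical. Reads assigned to genes ranged between 15678443 and 19604367 per library, and 3 reads of 1 library correspond to between 0.153 and 0.193 CPM, the counts scaled to library depth with TMM factors. In bulk RNA, fewer cells of a type and less RNA per cell cannot be told apart.

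The line was checked against marker lists. Of 11 sympathetic neuroblast markers 10 were well detected, with a summed level of 2389 to 3495 CPM, while TH, the rate-limiting enzyme of catecholamine synthesis, had 3 reads in all 9 libraries together. The 10 mesenchymal markers summed to 3483 to 5608 CPM, led by fibronectin (FN1). Of the Schwann and glial markers, FABP7 was at 0 and SOX10 had 43 reads in all, and the list summed to at most 9.47 CPM. The 5 epithelial markers summed to 34.1 to 50.1 CPM.

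Neuropeptides are made as precursor proteins that enter the regulated secretory pathway. Granins help to pack them into dense-core vesicles, proprotein convertases and carboxypeptidases cut them there, and the amidating enzyme PAM finishes many of them. The released peptides act on G-protein-coupled receptors. In sympathetic neurons NPY is stored together with noradrenaline, and cyclic AMP, acting through CREB on the cyclic AMP response element, is a known inducer of VIP and VGF. SH-SY5Y cells and other neuroblastoma lines are known to make NPY and VIP.

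Promoter sequence is shown for 3 of the genes whose counts were lowest in the replicate 1 libraries, as described below. They were picked with those counts known, because these promoters differ in whether they hold the cyclic AMP response element. RefSeq windows on GRCh38.p14 were matched for 5 of the 9 genes, and the 150 bases before the RefSeq start are given 5′ to 3′ on the gene's strand. The VGF stretch lies at chr7:101165570-101165719 on the minus strand, the VIP stretch at chr6:152750647-152750796 on the plus strand, and the NPY stretch at chr7:24284040-24284189 on the plus strand. Capitals mark the full element TGACGTCA or, outside it, the half-element TGACG and its reverse complement CGTCA.
VGF: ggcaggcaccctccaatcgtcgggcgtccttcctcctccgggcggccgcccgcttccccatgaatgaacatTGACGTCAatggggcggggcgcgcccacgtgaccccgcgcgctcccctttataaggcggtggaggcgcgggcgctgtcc
VIP: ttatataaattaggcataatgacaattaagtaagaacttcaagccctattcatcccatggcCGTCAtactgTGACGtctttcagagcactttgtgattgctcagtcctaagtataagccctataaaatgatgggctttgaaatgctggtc
NPY: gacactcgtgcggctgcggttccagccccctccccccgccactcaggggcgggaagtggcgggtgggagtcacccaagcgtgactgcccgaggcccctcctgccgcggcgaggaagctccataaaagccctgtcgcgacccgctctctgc

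The VGF window holds TGACGTCA with its first base at -79, and 1.85% of 35116 windows of 300 bases (250 before to 50 after a start) hold these letters on either strand. The half-elements counted in VGF lie inside that full element. VIP holds the half-element CGTCA at -89 and TGACG at -79, and 24.6% of the windows hold a half-element. CALCA and ADCYAP1, with 40 and 2 reads over all libraries, hold it too. It is TGACG at -110 in CALCA and CGTCA at -238 in window 2 of ADCYAP1, so it does not separate the well detected genes. None of the searched letters occur in the NPY window. The AP-1 letters TGANTCA, which 7.71% of windows hold, are in none of the 5 genes' windows, and the antioxidant response element core TGACNNNGC, held by 13.3%, starts at -50 in VGF. These matches describe the letters in the windows and were not tested for binding.

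Levels were compared between genes per kilobase of exon (CPM per kb, GENCODE 29 exons). Over all 9 libraries VGF, a granin-like precursor of several secreted peptides, had the highest mean, 203 ± 70.9 CPM per kb (SD, n = 9). NPY, the sympathetic co-transmitter, followed at 168 ± 106, and SCG2, the precursor of secretoneurin, at 133 ± 51.4. VIP, the vasoactive intestinal peptide, stood at 76.5 ± 38.5, and at 146 ± 71.2 when the reads of both strand columns are summed. Each of these 4 overlaps its neighbour in the order over the libraries. GAL, the precursor of galanin, was far below them at 14.9 ± 1.96 CPM per kb, and CALCB, which encodes the beta form of calcitonin gene-related peptide (CGRP), was at 1.51 ± 0.40. Both gaps are wider than the spread over libraries.

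The order at the top depended on the replicate number. In replicate 1 libraries VGF averaged 109.7 ± 3.97 CPM per kb (SD, n = 3), SCG2 70.1 ± 3.90, NPY 40.5 ± 6.10 and VIP 30.0 ± 3.57. In replicate 3 libraries NPY averaged 282 ± 5.68, VGF 260.4 ± 13.9, SCG2 143 ± 9.04 and VIP 83.0 ± 0.38. NPY was thus below SCG2 in replicate 1 and above VGF in replicate 3. In replicate 2 libraries VGF averaged 238 ± 5.13, SCG2 186 ± 12.5, NPY 183 ± 18.5 and VIP 117 ± 13.9. The place of VIP turned with the way of counting. With the reads of both strand columns summed, VIP averaged 57.7 ± 5.48, 220 ± 4.19 and 161 ± 6.32 in replicates 1, 2 and 3. That is above NPY in replicate 1, above SCG2 and NPY in replicate 2 and above SCG2 in replicate 3.

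The 3 genes under the filter were close to or at the limit of detection. CALCA, which gives calcitonin and alpha-CGRP by alternative splicing, had 2 to 7 reads per library and 40 in all (exact Poisson 95% interval 28.6 to 54.5, counting error only). Its libraries overlapped between all doses, and no fold change is given. ADCYAP1, the precursor of the peptide PACAP, had 2 reads, both in vehicle replicate 1. PENK, the proenkephalin gene, had 0 reads (exact Poisson 95% interval 0 to 3.69). A floor of 3 reads corresponds to 0.0192 CPM over all libraries together. CALCA, at 0.257 CPM over all libraries together and with a read in each of the 9, was thus detected at a low level. The counts of ADCYAP1 and PENK do not show that these genes are silent, only that they were not detectable at this depth.

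The genes lie apart in the genome except for CALCA and CALCB. On GRCh38 with GENCODE 29, NPY is at chr7:24284163-24291865 (plus strand), GAL at chr11:68683779-68691175 (plus), VIP at chr6:152750798-152759765 (plus), VGF at chr7:101162509-101165593 (minus) and SCG2 at chr2:223596940-223602503 (minus). CALCB spans chr11:14904997-15082342 on the plus strand, and CALCA lies within that span on the minus strand at chr11:14966668-14972354. RefSeq gives CALCB a shorter extent, chr11:15073593-15078637, which does not reach CALCA. The nesting, and the exon length behind CALCB's level per kilobase, therefore hold for the GENCODE 29 model. All are protein-coding, and the counts are over their exons. Since the kit does not mark strand, reads of CALCA and CALCB that overlap could not be assigned by strand, but for all genes in the set except VIP the joint count and the sum of the strand counts differed by at most 0.0262%.

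The first question was whether 20 µM citrinin moved these transcripts relative to vehicle. CALCB was the one member that passed the test, and it fell. By replicate number 1, 2 and 3, CALCB had 4.34, 6.18 and 4.28 CPM at 20 µM, against 6.19, 9.24 and 6.39 CPM with vehicle, from 72 to 163 reads. Each 20 µM library was below its same-numbered vehicle library, and the groups do not overlap, although the highest at 20 µM and the lowest with vehicle nearly touch. The means were 4.93 ± 1.08 CPM at 20 µM and 7.28 ± 1.71 CPM with vehicle (SD, n = 3 each).

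The planned edgeR fit has no replicate term. It called no gene in any of the 3 comparisons, where an unadjusted p below 0.05 was reached by 387 genes at 20 µM against vehicle, by 115 at 10 µM against vehicle and by 210 between the doses. DESeq2, also unblocked, called 11 genes at 20 µM against vehicle. Same-numbered libraries deviate together, so edgeR values with the replicate number as a block are given beside it. "Rose" and "fell" here mean a Benjamini-Hochberg adjusted p below 0.05 over all 17806 genes in that blocked fit. CALCB had a log2 fold change of -0.56 ± 0.15 (SE; 95% interval -0.87 to -0.25, 0.68-fold) and an adjusted p of 0.0481 with the block. Without the block its log2 fold change was the same at -0.56 ± 0.24, with a p of 0.0439 and an adjusted p of 0.99999. With the block 1 of the 6 tested members was called, against 2.21% of all genes (1.36% called lower), and 1 of 6 had groups without overlap, against 6.76%.

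The CALCB call is a narrow one. Of 20 blocked alternatives it was kept in 6 and lost in 14, with adjusted p between 0.0270 and 0.470, while the log2 fold change stayed between -0.58 and -0.54. It was lost with DESeq2 (adjusted p = 0.144), with limma-voom (0.0769), without TMM scaling (0.0570), with the strand counts summed (0.0578) and in 10 of 12 fits that left out libraries. The 2 leave-outs that kept it lacked 10 µM replicate 1 or 10 µM replicate 2.

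GAL and SCG2 had lower means at 20 µM but did not pass the test. GAL had 16.2, 18.3 and 17.6 CPM at 20 µM, against 18.0, 23.7 and 20.4 CPM with vehicle, replicates 1, 2 and 3 in turn. The groups overlap, and each 20 µM library was below its same-numbered vehicle library. In the blocked edgeR fit its log2 fold change was -0.25 ± 0.09 (interval -0.44 to -0.06, adjusted p = 0.192). SCG2, whose peptide secretoneurin is released with catecholamines, had 181, 498 and 380.1 CPM at 20 µM, against 202, 543 and 415 CPM with vehicle. It was lower in each of the 3 same-numbered pairs by a similar amount, and the groups overlap widely. The blocked log2 fold change was -0.14 ± 0.04 (interval -0.23 to -0.04, adjusted p = 0.122), and it passed when 10 µM replicate 2 was left out.

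NPY, VIP and VGF stayed near their vehicle levels. NPY had 42.0, 179.9 and 263 CPM at 20 µM, against 38.7, 149 and 262 CPM with vehicle. All 3 same-numbered pairs were higher at 20 µM, replicate 3 by 0.00792 on the log2 scale, and the blocked log2 fold change was 0.13 ± 0.08 (interval -0.04 to 0.30, edgeR adjusted p = 0.534). VGF had 306, 654 and 687 CPM at 20 µM, against 299.7, 628 and 747 CPM with vehicle, and these groups overlap almost fully. Its blocked log2 fold change of -0.01 ± 0.05 has an interval of -0.11 to 0.08. VIP had 53.7, 179.9 and 131 CPM at 20 µM, against 46.1, 165 and 132 CPM with vehicle, with a blocked log2 fold change of 0.10 ± 0.08 (interval -0.07 to 0.28).

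**Figure D1:**
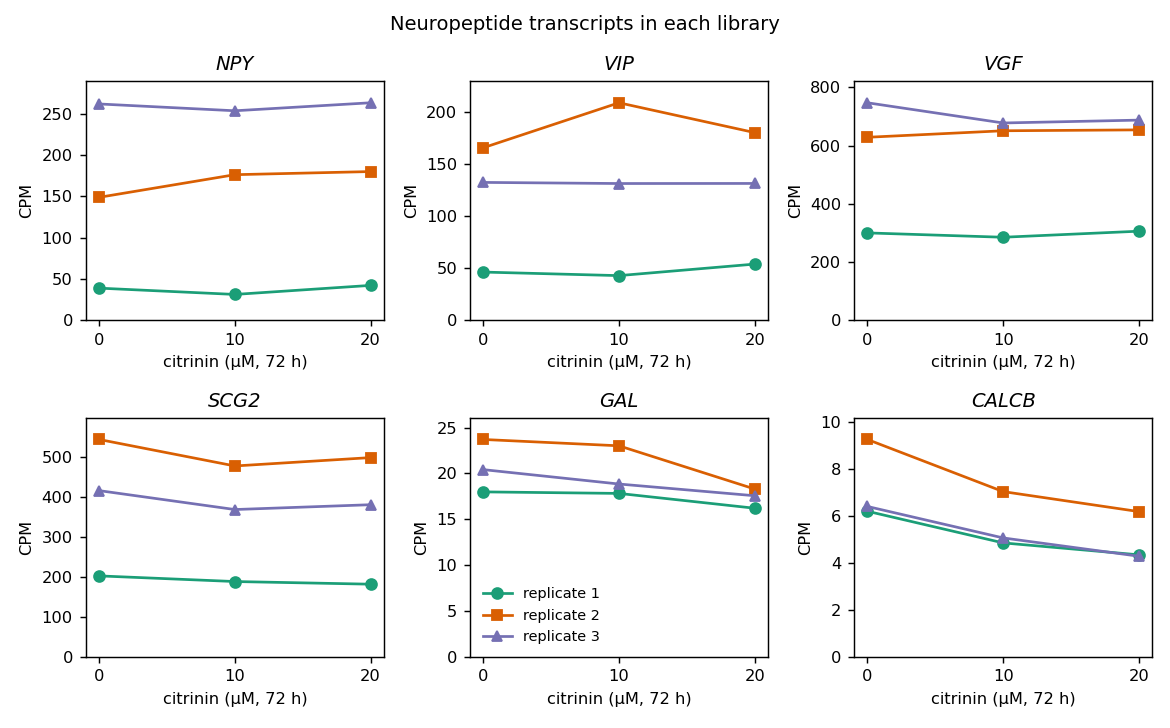
CPM (vertical axis, from 0) of the 6 tested neuropeptide genes against citrinin dose (0, 10 and 20 µM); each point is 1 library and lines join libraries of the same replicate number. The replicate 1 line runs below the other lines for NPY, VIP, VGF and SCG2 at every dose, and all 3 CALCB lines are lowest at 20 µM.

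The second comparison set 10 µM citrinin against vehicle. None of the 6 members passed with the block, against 0.0337% of all genes, and without the block none had an unadjusted p below 0.05. CALCB had 4.84, 7.03 and 5.06 CPM at 10 µM, against 6.19, 9.24 and 6.39 CPM with vehicle. All 3 pairs were lower at 10 µM, with a blocked log2 fold change of -0.36 ± 0.15 (interval -0.67 to -0.06), but the edgeR adjusted p was 0.9997. SCG2 had 188, 477 and 368 CPM at 10 µM, against 202, 543 and 415 CPM with vehicle. Its blocked log2 fold change was -0.16 ± 0.04 (interval -0.25 to -0.07), with an unadjusted p of 0.00157 and an adjusted p of 0.719 from edgeR. SCG2 thus lay at about the same distance below vehicle at either dose.

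At 10 µM NPY had 31.1, 176 and 254 CPM and VGF 285, 651 and 678 CPM, each overlapping vehicle. Their blocked log2 fold changes against vehicle were -0.00446 ± 0.08 (interval -0.17 to 0.17) and -0.06 ± 0.05 (interval -0.15 to 0.04). GAL had 17.8, 23.0 and 18.8 CPM at 10 µM (-0.06 ± 0.09, interval -0.24 to 0.13), close to vehicle in each pair. VIP had 42.7, 209 and 131 CPM at 10 µM, with a blocked log2 fold change of 0.09 ± 0.08 against vehicle, which rests on the replicate 2 pair discussed with the strand counts.

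Between the doses, 20 µM against 10 µM, none of the 6 members passed with the block, against 0.444% of all genes. The blocked log2 fold change was -0.20 ± 0.16 for CALCB (interval -0.52 to 0.12) and -0.19 ± 0.09 for GAL (-0.38 to -0.00164, edgeR adjusted p = 0.560), and each was lower at 20 µM in all 3 pairs. NPY was higher at 20 µM in all 3 pairs (0.14 ± 0.08, interval -0.03 to 0.31), VGF and SCG2 lay at 0.04 ± 0.05 and 0.02 ± 0.04, and VIP at 0.00922 ± 0.08. Both vehicle comparisons share the same vehicle libraries, so like directions at 10 and 20 µM are not separate evidence.

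**Figure D2:**
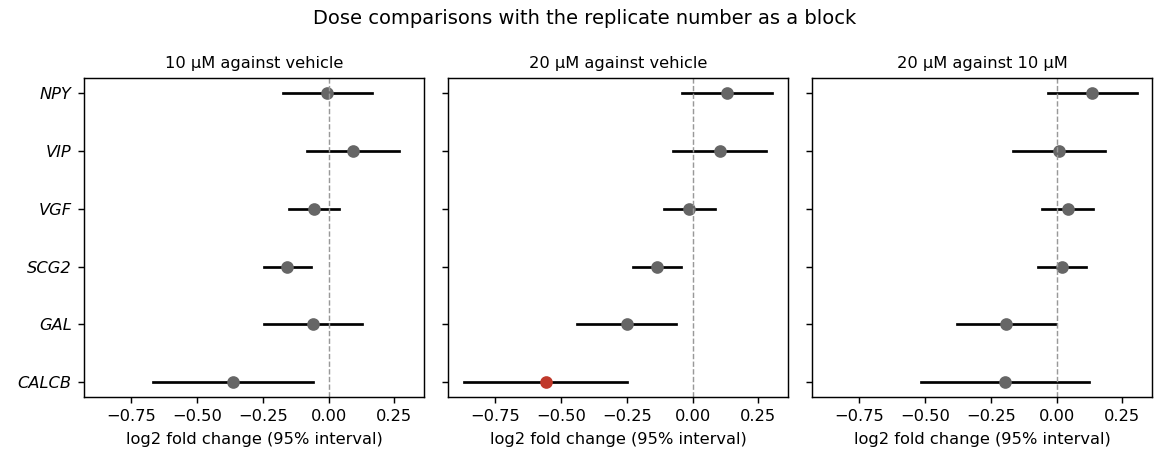
Log2 fold changes (horizontal axis) with 95% intervals from edgeR with replicate number as a block, for 6 genes in 3 comparisons. The red point marks CALCB at 20 µM against vehicle, at -0.56, the one value with an adjusted p below 0.05.

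Replicate number, rather than dose, went with most of the variation of these genes. It took 98.9% of the variance of log2 CPM over the 9 libraries for NPY, 98.2% for VIP, 99.3% for VGF and 98.5% for SCG2, while dose took 0.375%, 0.297%, 0.176% and 1.34% for the same genes in turn. Over all tested genes together the shares were 62.2% for number and 13.6% for dose. CALCB and GAL had larger dose shares, with 46.2% and 37.0% for dose and 53.5% and 55.3% for number. The shares include noise between libraries.

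**Figure D3:**
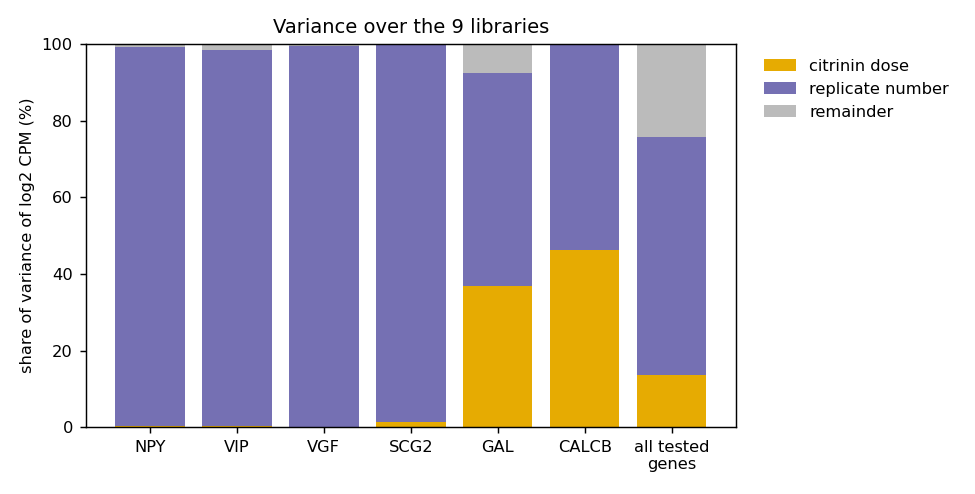
Share of the variance of log2 CPM (%, vertical axis) taken by citrinin dose, by replicate number and by the remainder for each tested neuropeptide gene and for all tested genes pooled. Replicate number fills at least 98.2% of the bars of NPY, VIP, VGF and SCG2, while dose takes 46.2% for CALCB and 37.0% for GAL.

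NPY, VIP, VGF and SCG2 were lower in replicate 1 libraries than in those of replicate 2 and of replicate 3 at each dose, while GAL and CALCB were lower than replicate 2 and did not pass against replicate 3 in edgeR. Over all genes 7105 of 17806 had fitted values in replicate 1 below both others. NPY averaged 37.3 ± 5.62 CPM in replicate 1, 168 ± 17.0 in replicate 2 and 259.6 ± 5.24 in replicate 3 (SD, n = 3 doses each), and no library of one number overlaps those of another. Replicate 1 minus replicate 2 was a log2 difference of -2.18 ± 0.08 (SE), a 4.52-fold distance, and replicate 1 minus replicate 3 was -2.80 ± 0.08, or 6.98-fold. VIP averaged 47.5 ± 5.66, 184.6 ± 22.0 and 131.4 ± 0.60 CPM, with log2 differences of -1.96 ± 0.08 and -1.47 ± 0.08. Here replicate 2 was the highest, unlike for NPY.

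VGF averaged 297 ± 10.7, 644 ± 13.9 and 704 ± 37.6 CPM in replicates 1, 2 and 3, a 2.17-fold and a 2.37-fold distance of replicate 1 to the others. SCG2 averaged 191 ± 10.6, 506 ± 33.9 and 388 ± 24.6 CPM, a 2.65-fold and a 2.03-fold distance. In both genes replicate 1 stands clear of every other library. GAL averaged 17.3 ± 0.99, 21.7 ± 2.94 and 18.9 ± 1.43 CPM and CALCB 5.12 ± 0.96, 7.48 ± 1.58 and 5.24 ± 1.07 CPM, so that replicate 1 and replicate 3 overlap. Replicate 1 minus replicate 3 was -0.13 ± 0.09 for GAL and -0.03 ± 0.16 for CALCB on the log2 scale (edgeR adjusted p = 0.304 and 0.896), and at 20 µM CALCB was slightly higher in replicate 1 than in replicate 3.

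An edgeR F test of replicate number beside dose called 6 of 6 tested members, against 43.3% of all genes. Nothing is read from this count, since the members were chosen with these values known. DESeq2 called 5, without GAL, and fits that left out a library called 4 to 6. GAL was lost without vehicle replicate 1, without vehicle replicate 2 or without 10 µM replicate 2, and CALCB without vehicle replicate 2.

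Cell-state markers also differed between replicate numbers. The sympathetic markers summed to 3217 to 3495 CPM in replicate 1, 2858 to 3383 in replicate 2 and 2389 to 2857 in replicate 3, so replicate 1, with the least neuropeptide RNA, had the most of these. Within that list ELAVL4 and STMN2, neuronal genes, peaked in replicate 2: ELAVL4 averaged 235, 439 and 327 CPM and STMN2 571, 767 and 572 CPM. DDC, an enzyme of catecholamine synthesis, also peaked in replicate 2, at 46.7, 75.2 and 52.8 CPM. The mesenchymal list summed to 4795 to 4997 CPM in replicate 1, 3483 to 3918 in replicate 2 and 5192 to 5608 in replicate 3. Most of each mesenchymal sum was FN1, at 3355, 2649 and 3907 CPM in replicates 1, 2 and 3. In that list COL1A1, a fibrillar collagen, averaged 428, 66.7 and 286 CPM and PRRX1, a mesenchymal transcription factor, 133, 28.5 and 89.1 CPM. VIM, COL1A2, TWIST1 and SNAI2 were also highest in replicate 1. CD44, YAP1 and ACTA2 of the same list were instead lowest in replicate 1, with CD44 at 108, 170.1 and 250.03 CPM, YAP1 at 34.7, 38.2 and 52.2 CPM and ACTA2 at 81.0, 107.6 and 120.1 CPM. By dose the sympathetic sums were 2857 to 3495 CPM with vehicle, 2798 to 3414 at 10 µM and 2389 to 3217 at 20 µM, and the mesenchymal sums 3540 to 5215, 3483 to 5192 and 3918 to 5608. Within same-numbered pairs the sympathetic sum was lower at 20 µM in all 3, with 3217, 2858 and 2389 CPM at 20 µM, against 3495, 3383 and 2857 CPM with vehicle in replicates 1, 2 and 3. It was also lower at 10 µM in all 3 pairs, with 3414, 3248 and 2798 CPM at 10 µM. At 20 µM CALCB, GAL, SCG2 and CHGA were also lower in all 3 pairs, and PHOX2A, which is itself in the list, fell. NPY and RAB27B were instead higher at 20 µM in all 3 pairs, and VIP and VGF in 2 of 3. The mesenchymal sum at 20 µM was lower in the replicate 1 pair and higher in the other pairs. The part of these differences in the neuropeptide values was not tested.

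VIP needs a remark on counting. The authors' count of both strands together held 789, 740 and 892 VIP reads in replicate 1 at 0, 10 and 20 µM, while the strand columns summed to 1561, 1436 and 1663. In replicate 2 the joint counts were 2916, 3235 and 3146 and the sums 6002, 5438 and 6170. In replicate 3 the joint counts were 2252, 2566 and 2299 and the sums 4514, 5012 and 4293. Between 40.5% and 51.4% of VIP's strand-column reads (median 48.8%) were thus missing from the joint count, and the lowest share belongs to 10 µM replicate 2.

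The long noncoding RNA gene LINC02840 showed the same gap, with 14 to 105 joint reads per library against strand sums of 713 to 3191. In each library the 2 genes lacked the same number of reads, so their strand sums appear to share those reads. In vehicle replicate 1, for instance, the strand sum and joint count were 1561 and 789 for VIP, and 786 and 14 for LINC02840. RefSeq places it at chr6:152754876-152875997, over part of VIP, whereas the GENCODE 29 model at chr6:152794496-152831913 (minus strand) does not reach VIP. The annotation release of the counts is not given in the sources used here. Without strand, reads of VIP and of this gene cannot be told apart where they overlap. With the strand counts summed and the block, VIP's log2 fold change was 0.02 ± 0.05 at 20 µM against vehicle (interval -0.09 to 0.14), -0.03 ± 0.05 at 10 µM against vehicle and 0.06 ± 0.05 between 20 µM and 10 µM, and none passed. In the replicate 2 pair VIP had 209 CPM at 10 µM, against 165 CPM with vehicle, by the joint count, but 350.5 CPM at 10 µM, against 340.3 CPM with vehicle, by the strand sums. The sign of the small 10 µM difference therefore turns with the way of counting, while the replicate 1 deficit is present in both.

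**Figure D4:**
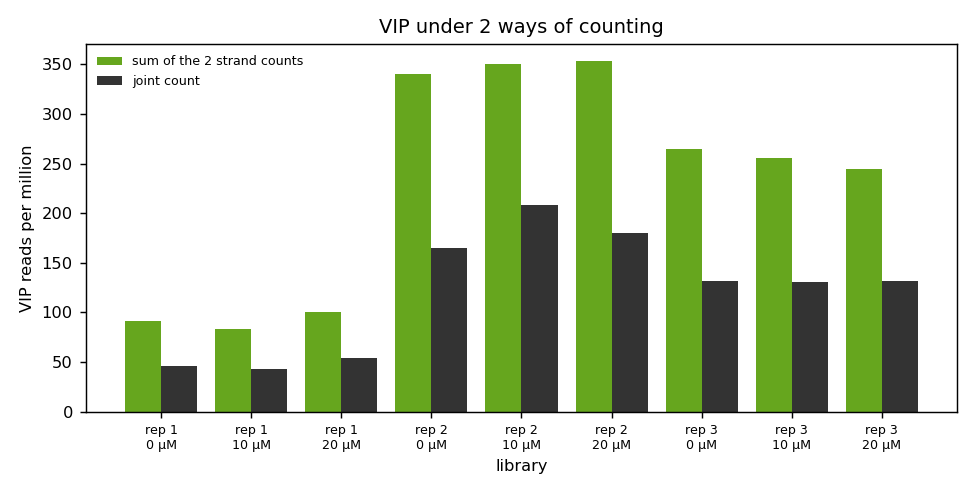
VIP reads in CPM (vertical axis, from 0) in each of the 9 libraries, ordered by replicate number and dose, as the sum of the 2 strand counts (green) and as the joint count (black). The sum is 1.68 to 2.06 times the joint count, and the replicate 1 libraries are the lowest under either.

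The machinery around these peptides was described from lists chosen with earlier results known. Of 23 granin and dense-core vesicle genes, all tested, 4 fell, 1 rose and 18 did not pass at 20 µM against vehicle in the blocked edgeR fit, where 2.21% of all genes passed and 1.36% passed as lower. Its members had a median log2 fold change of -0.12, against 0.00 for all genes. CHGA, chromogranin A, averaged 56.7 ± 8.66 CPM at 20 µM and 74.8 ± 11.8 CPM with vehicle (SD, n = 3 each; log2 fold change -0.40 ± 0.06, adjusted p = 0.000151). CHGB, its relative chromogranin B, averaged 82.7 ± 31.1 CPM at 20 µM and 101 ± 32.2 CPM with vehicle (-0.31 ± 0.06, adjusted p = 0.00442). SYT7, a calcium sensor of vesicle fusion, fell by 0.42 and RAB3C, a vesicle GTPase, by 0.28 on the log2 scale, while RAB27B, a GTPase that docks secretory vesicles, rose by 0.52.

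These calls differ in how well they hold. Among the 20 blocked alternatives CHGA kept its call in 19 (lost without the libraries of replicate 3), CHGB in 16, SYT7 in 14, RAB27B in 13 and RAB3C in 9. The list's count of 5 calls became 0 without all libraries of replicate 3, 1 without 20 µM replicate 3, and 2 without vehicle replicate 1, vehicle replicate 2 or vehicle replicate 3. It was 3 without 20 µM replicate 2, without all libraries of replicate 2 or with limma-voom. Over all blocked fits that left out libraries the count ranged from 0 to 7, so it also rose. Between 20 µM and 10 µM, CHGA (-0.33 ± 0.06) and SYT7 (-0.38 ± 0.08) were the 2 genes of the list that passed, against 0.444% of all genes. Both were lower at 20 µM. At 10 µM against vehicle none of any list passed, against 0.0337% of all genes.

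The same vesicle list shared the replicate pattern: 21 of 23 genes were lower in replicate 1 than in replicate 2 and replicate 3, with a median log2 difference of -0.59 to replicate 2 and -0.56 to replicate 3, against 0.00 and 0.01 over all genes, of which 7105 of 17806 were lower than both. SCG3, a granin that sorts cargo to vesicles, averaged 31.2 ± 0.64, 97.2 ± 4.03 and 67.7 ± 7.63 CPM in replicates 1, 2 and 3. RAB27B averaged 2.60 ± 0.40, 22.9 ± 6.52 and 39.0 ± 8.26 CPM. Lower in replicate 1 than in both others were 6 of 12 peptide processing genes and 3 of 14 other peptide precursors.

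Of 16 listed peptide processing genes 12 were tested, and 0 rose or fell at 20 µM against vehicle, against 2.21% of all genes. At that share a count of 0 among 12 says nothing particular about these genes. Their median log2 fold change was 0.09. PAM, the amidating enzyme, was at 299 ± 51.6 CPM at 20 µM and 273 ± 39.5 CPM with vehicle (0.13 ± 0.05, edgeR adjusted p = 0.185), and CPE, the carboxypeptidase that trims precursors, at 117 ± 20.6 CPM at 20 µM and 118 ± 18.6 CPM with vehicle. FURIN, a convertase of the general secretory pathway, averaged 68.9 CPM over all libraries. The convertases that are specific to neuroendocrine vesicles were nearly undetected, PCSK1 with 25 reads and PCSK2 with 17 reads in all 9 libraries, and SCG5, the chaperone of PCSK2, averaged 0.92 CPM.

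Receptors for the set's peptides gave 2 calls among 12 tested of 21 listed, both lower at 20 µM, against 2.21% of all genes called and 1.36% called as lower. OPRM1, the mu opioid receptor, averaged 41.9 ± 23.4 CPM at 20 µM and 61.4 ± 37.1 CPM with vehicle (log2 fold change -0.54 ± 0.07, adjusted p = 2.00e-05 with the block). OPRD1, the delta opioid receptor at which enkephalins act, averaged 16.7 ± 1.77 CPM at 20 µM and 23.2 ± 2.98 CPM with vehicle (-0.48 ± 0.09, adjusted p = 0.00216), without overlap between the groups. OPRM1 kept its call in 20 of 20 blocked alternatives and OPRD1 in 19, all but the fit without the libraries of replicate 3. ADCYAP1R1, the receptor of PACAP, averaged 30.5 ± 6.86 CPM at 20 µM and 34.8 ± 6.60 CPM with vehicle and did not pass (-0.20 ± 0.08, edgeR adjusted p = 0.260). Among the receptors of NPY and galanin NPY2R was tested, with 27 to 77 reads per library, and averaged 2.74 ± 1.25 CPM at 20 µM and 2.90 ± 1.40 CPM with vehicle without passing. NPY4R had 32 reads in all libraries, NPY1R 1, NPY5R and GALR1 0, GALR2 6 and GALR3 9. OPRK1, the kappa opioid receptor, had 1 read and was not tested.

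Among regulators of cyclic AMP signalling and neuronal genes, PHOX2A, a determinant of noradrenergic identity, fell at 20 µM, with 327 ± 92.6 CPM at 20 µM and 369 ± 87.1 CPM with vehicle (log2 fold change -0.18 ± 0.05, edgeR adjusted p = 0.0371 with the block). Its call was lost in 11 of 20 blocked alternatives, namely DESeq2, no TMM scaling, summed strand counts, and the fits without vehicle replicate 1, 2 or 3, without 10 µM replicate 3, without 20 µM replicate 2 or 3, and without all libraries of replicate 2 or of replicate 3. PHOX2A was highest in replicate 1, where NPY, VIP, VGF and SCG2 were lowest, with 438 ± 25.6, 319.8 ± 24.7 and 283 ± 23.4 CPM in replicates 1, 2 and 3. CREB1, the cyclic AMP response factor, was at 81.8 ± 1.60 CPM at 20 µM and 86.2 ± 6.60 CPM with vehicle, and REST, the repressor of neuronal genes, at 79.3 ± 7.77 CPM at 20 µM and 80.3 ± 1.19 CPM with vehicle, and neither passed.

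The members most alike in pattern were compared by Pearson's r of log2 CPM over the 9 libraries, which share doses and replicate numbers, so r is a description. VGF and NPY had r = 0.989, VIP and SCG2 0.974, and CALCB and GAL 0.878, while NPY and CALCB had 0.228. After the mean of each replicate number was subtracted, CALCB had r = 0.845 with SCG2 and 0.811 with GAL, and NPY had 0.805 with VIP. Among 11984 genes averaging at least 5 CPM, those most like NPY were BASP1, a growth cone protein (r = 0.997), BDKRB2, a bradykinin receptor (0.996), and C1QTNF1 (0.995). VGF was most like the G-protein subunit gene GNAI1 (0.998), HS2ST1 and PSG4 (both 0.997), and SCG2 most like TMEM178B, XPR1 (both 0.997) and the GTPase gene RAB8B (0.995).

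For VIP the most alike were ZBED10P, the vesicle cytochrome CYB561 and the vesicle protein SYP, each with r = 0.992. GAL was most like CHGA (0.963), the calcium channel subunit gene CACNA2D2 (0.961) and ELAVL2 (0.951), and CALCB most like PRKCI (0.967), GRK3 (0.959) and PLCXD3 (0.953). With the replicate means removed the nearest genes were others: DYRK4 for NPY (0.991), MTUS1 for CALCB (0.987), RPH3A, an effector of vesicle GTPases, for GAL (0.997), SZRD1 for VIP (0.988), FAM118A for VGF (0.947) and SGPP2 for SCG2 (0.975). The next in rank were SLC35B2 and PRKAB1 for NPY, SPRY4 and RNF144A for CALCB, KCNJ3 and ZCCHC18 for GAL, AURKAIP1 and RPL13 for VIP, ZNF90 and ID2 for VGF, and DBP and PNMA8C for SCG2. Correlations this high are found when so many genes are searched over few libraries, and nothing is said of shared function or control.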

How the data were processed

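RNA-seq was read from total RNA of 9 libraries. Per the submitters' processing notes, FastQC, cutadapt, STAR and edgeR were used with GRCh38. Which versions and which annotation release is not given in the sources used here. What the authors deposited is raw counts per gene from STAR for both strands together and for each strand. The reads of both strands were near 1 to 1 (ratio 1.007 to 1.020), so the joint count was used. Reads that were unmapped, multi-mapped, outside genes or ambiguous were left out of library sizes; 76.4% to 78.0% were assigned to genes, and 9.51% to 10.1% were ambiguous between genes. Reads matching several places were not counted.

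Genes passing filterByExpr were tested with edgeR's robust quasi-likelihood test on TMM-scaled counts in all 9 libraries (edgeR 4.0.16 in R 4.3.3; DESeq2 1.42.0 and limma 3.58.1 for alternatives), Benjamini-Hochberg adjusted p below 0.05, without a replicate term as planned and with the replicate number as a block. Whether the numbers, taken from the sample titles, pair the samples was checked by the correlation of deviations from group means: r lay between 0.457 and 0.685 in the 9 pairs that share a number (limit 0.1) and between -0.545 and 0.139 in other pairs, so blocked values stand beside the planned fit. Libraries of a group differed by more than sampling noise. The scripts were tested on simulated counts drawn with the replicate effects fitted here. That test cannot show whether the block is right for these libraries. Log2 CPM used a prior count of 2.

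The members and lists were chosen with earlier results of these data known. By rule all members are named, of each list at most 4 genes past the blocked threshold with the smallest p, and per member the 3 most alike genes averaging at least 5 CPM. Other genes, among them RAB3C of the vesicle list, were named after their values were seen, as background to these. One result of the regulator list is not reported here. Summing the strand counts was an alternative chosen after seeing the data. Protein sequences were not used here.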

Additional observations from a re-analysis of the deposited data

How the results depend on the processing

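The block decides the calls. At 20 µM against vehicle 0 genes passed without it, 6 with no filter on low counts, 11 with DESeq2 and 393 with the replicate block, and 0 to 1 when single libraries were left out; at 10 µM against vehicle the block gave 6 and between the doses 79. Among the members the block gave 1 call in place of 0. The blocked counts moved to 645, 12 and 30 in fits of the 2 groups compared, in the order 20 µM, 10 µM, between doses, and with no filter to 23 at 10 µM and 188 between the doses. Leaving out libraries under the block gave 48 to 729 genes at 20 µM (48 without replicate 3, 729 without 10 µM replicate 2), 0 to 16 at 10 µM and 0 to 301 between the doses, and 0 to 2 members at 20 µM. The member call was 0 with the block and no TMM, DESeq2, limma-voom or summed strand counts (the last chosen after seeing the data).

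Signs turned for values near 0, none past the threshold; the cause was not tested. At 10 µM NPY was -0.0382 with limma-voom and -0.00446 with the block; within the block it was 0.0196 with limma-voom, 0.00562 with summed strand counts and 0.000178 in the fit of 2 groups. VIP at 10 µM was -0.00420 with summed strands and -0.0328 with these and the block; between the doses it was 0.0458 with limma-voom, 0.0101 with summed strands and 0.00922 with the block, and -0.0155 with limma-voom and the block.

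Without the block, leaving out 1 library unbalances the replicate numbers. At 20 µM against vehicle it moved NPY between -0.43 and 0.79, VIP between -0.31 and 0.45, VGF between -0.33 and 0.26 and SCG2 between -0.46 and 0.19. At 10 µM against vehicle the ranges were -0.54 to 0.71 for NPY, -0.18 to 0.0495 for GAL, -0.40 to 0.57 for VIP, -0.36 to 0.25 for VGF and -0.48 to 0.16 for SCG2, and between the doses -0.47 to 0.65 for NPY, -0.48 to 0.48 for VIP, -0.28 to 0.32 for VGF and -0.29 to 0.35 for SCG2. With the replicate block these ranges were -0.0567 to 0.0484 for VGF at 20 µM, -0.14 to 0.0913 for NPY and -0.0499 to 0.19 for VIP at 10 µM, and -0.11 to 0.15 for VIP and -0.000997 to 0.0538 for SCG2 between the doses. Depth limits CALCA, ADCYAP1 and PENK, and CALCB rests on 72 to 163 reads a library.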

Other observations

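Other peptide precursors expressed in these cells were few. Of 50 listed, 14 were tested. With the block in edgeR none passed at 20 µM against vehicle, at 10 µM against vehicle or between the doses. The shares over all genes were 2.21%, 0.0337% and 0.444% in turn, so nothing is read from a count of 0. ADM, the adrenomedullin precursor, averaged 17.3 ± 4.81 CPM at 20 µM and 16.7 ± 2.31 CPM with vehicle (SD, n = 3 each), NMB, the neuromedin B precursor, 13.7 ± 1.59 CPM at 20 µM and 13.1 ± 0.69 CPM with vehicle. NPPB, the precursor of B-type natriuretic peptide, followed the replicate number like VIP and SCG2, with 1.25 ± 0.12, 14.1 ± 0.63 and 8.59 ± 0.76 CPM in replicates 1, 2 and 3 (SD, n = 3 doses each), while NMB lay at 13.6 ± 1.72, 12.9 ± 1.15 and 13.6 ± 0.51 CPM. SST, TAC1 and CARTPT had 0 reads in all libraries, where a floor of 3 reads corresponds to 0.0192 CPM over all libraries together.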
